A study of Mus musculus with 2 samples.

Results

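The 10 chemokine genes described here, Ccl2, Ccl7, Ccl11, Ccl3, Ccl4, Cxcl1, Pf4, Cxcl12, Cxcl14 and Cx3cl1, were taken by symbol from the 32285 genes listed for both libraries. All 10 were found under a single identifier, the same as in GENCODE. The list was drawn up with results in view: lower Ccl2 and Ccl7 in cKO macrophages and higher Cxcl14 in cKO Schwann cells were among the reasons for choosing these genes, so those values are given as a description.

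Dorsal root ganglia, which hold the cell bodies of the body's sensory neurons, were collected at postnatal day 4 from all axial levels, dissociated with enzymes and sequenced as single cells from the 3′ end. There was 1 cKO library, from mice carrying Dhh-Cre and Ptges3 flox/flox, and 1 flox library, from Ptges3 flox/flox mice with no Cre named. Both groups carry the floxed Ptges3 allele. Dhh-Cre acts in the Schwann cell lineage. Ptges3 codes for p23, which assists the chaperone HSP90 and can also act as a cytosolic prostaglandin E synthase. How many mice were pooled per library is not stated in the sources used here. With 1 library per genotype no difference could be tested against the spread between animals; every interval below is an exact 95% interval that covers counting error only, and genotype, animal, dissociation and library cannot be told apart.

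The cKO library held 9703 barcodes and 78144437 UMIs (unique molecular identifiers, each standing for 1 captured RNA molecule), and the flox library 10014 barcodes and 132620886 UMIs. After filtering, 7866 cKO and 8107 flox cells were kept, with median UMIs per cell of 4319.5 in cKO and 6886 in flox; 16 barcodes were kept in both libraries. Cells were assigned to classes by marker genes, and 10 classes were present in both libraries with at least 50 cells over both. Ptges3 was lower in all 4 glial classes of the cKO library, with log2 ratios of cKO over flox from -1.21 to -0.68, and was higher past a log2 ratio of 0.5 in neurons (0.51), endothelial cells (0.63) and mural cells (0.59). Oligodendrocytes and astrocytes, which belong to the central nervous system, made up 0 cells in cKO, against 330 and 155 cells in flox. Neurons of the cKO library were shallower, with a median of 9346 UMIs against 46318 in flox.

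Chemokines are small secreted proteins that bind G-protein-coupled receptors and attract cells that carry those receptors. Most are named by the spacing of their first conserved cysteines, as CC, CXC or CX3C ligands. Inflammatory members such as Ccl2 and Cxcl1 are switched on quickly in many cell types and bring in monocytes and neutrophils, whereas homeostatic members such as Cxcl12 and Cxcl14 are made steadily in tissues. In injured sensory ganglia, Ccl2 and Cx3cl1 are known for signalling between neurons, glia and macrophages. Cells also switch on immediate early and chemokine genes while a tissue is being dissociated with warm enzymes.

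In the GRCm38 annotation the 5 CC genes lie on chromosome 11. Ccl2 (ENSMUSG00000035385, 82035571 to 82037453), Ccl7 (ENSMUSG00000035373, 82045712 to 82047525) and Ccl11 (ENSMUSG00000020676, 82057823 to 82062955) follow each other on the forward strand. Ccl3 (ENSMUSG00000000982, 83647844 to 83649355, reverse strand) and Ccl4 (ENSMUSG00000018930, 83662584 to 83664683, forward strand) are neighbours further along. Pf4 (ENSMUSG00000029373, 90772435 to 90773383) and Cxcl1 (ENSMUSG00000029380, 90891241 to 90893115) lie on the forward strand of chromosome 5. Cxcl12 (ENSMUSG00000061353) is on chromosome 6 at 117168535 to 117181367, Cxcl14 (ENSMUSG00000021508) on the reverse strand of chromosome 13 at 56288643 to 56296551, and Cx3cl1 (ENSMUSG00000031778) on chromosome 8 at 94772009 to 94782427. All 10 are annotated as protein coding.

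The upstream sequences of Cxcl1, Cxcl12 and Cxcl14 are shown because these genes differed between the libraries in several classes and in different directions. Each is the 250 bases before the annotated start, 5′ to 3′ on the gene's own strand, from RefSeq on GRCm38.p6: chr5:90890995-90891244 (forward strand) for Cxcl1, chr6:117168285-117168534 (forward strand) for Cxcl12 and chr13:56296552-56296801 (reverse strand) for Cxcl14. Capitals mark matches to an NF-kappa-B motif, GGG followed by any 5 bases and CC, on either strand.
Cxcl1: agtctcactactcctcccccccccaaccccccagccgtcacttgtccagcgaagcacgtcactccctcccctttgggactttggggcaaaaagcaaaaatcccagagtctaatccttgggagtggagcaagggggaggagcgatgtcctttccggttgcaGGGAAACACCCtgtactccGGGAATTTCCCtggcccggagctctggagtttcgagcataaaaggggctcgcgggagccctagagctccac
Cxcl12: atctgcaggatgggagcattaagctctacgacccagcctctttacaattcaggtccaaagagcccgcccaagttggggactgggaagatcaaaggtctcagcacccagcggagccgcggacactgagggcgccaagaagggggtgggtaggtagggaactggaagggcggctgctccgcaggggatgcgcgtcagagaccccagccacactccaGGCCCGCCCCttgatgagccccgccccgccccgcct
Cxcl14: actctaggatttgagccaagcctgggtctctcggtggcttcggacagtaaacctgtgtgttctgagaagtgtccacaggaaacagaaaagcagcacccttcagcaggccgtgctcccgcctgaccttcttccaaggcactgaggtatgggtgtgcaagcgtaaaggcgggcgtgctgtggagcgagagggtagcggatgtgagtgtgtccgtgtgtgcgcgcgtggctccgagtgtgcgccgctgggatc
The Cxcl1 sequence held 2 such stretches, each matched on both strands by overlapping windows, GGGAAACACC with GGAAACACCC and GGGAATTTCC with GGAATTTCCC. The Cxcl12 sequence held GGCCCGCCCC and the Cxcl14 sequence held no match. Among the 6 members with a promoter entry (Ccl3, Cxcl1, Pf4, Cxcl12, Cxcl14 and Cx3cl1), only Cxcl1 and Cxcl12 held this motif, which was present in 45.8% of all 32851 RefSeq promoters over the same length. The AP-1 motif TGANTCA, searched on both strands, was in none of the 6 and in 6.75% of all promoters. A match is a run of letters and not a measured binding site.

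The chemokines differed in their distribution over the ganglion, though Ccl3, Ccl4 and Pf4 were all highest in macrophages. Levels below are CPM, the UMIs of a gene per 1000000 UMIs of all cells in that class and library; since a 3′ UMI counts a molecule once whatever its length, they are not divided by gene length, and they are compared between classes and libraries for the same gene. Ratios are log2 of the cKO over the flox level, and a ratio of at least 0.5 in size, on at least 50 UMIs over both libraries, is called past the fold. Of the 48 combinations of member and class with at least 50 UMIs, 12 were higher in cKO past the fold, 23 were lower and 13 lay within it. Over all measured genes, the share higher ran from 7.24% in satellite glia to 19.7% in endothelial cells. The share lower ran from 4.37% in neurons to 26.5% in mural cells. The 48 include the pairs that chose the genes, so nothing is read from these counts.

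**Figure D1:**
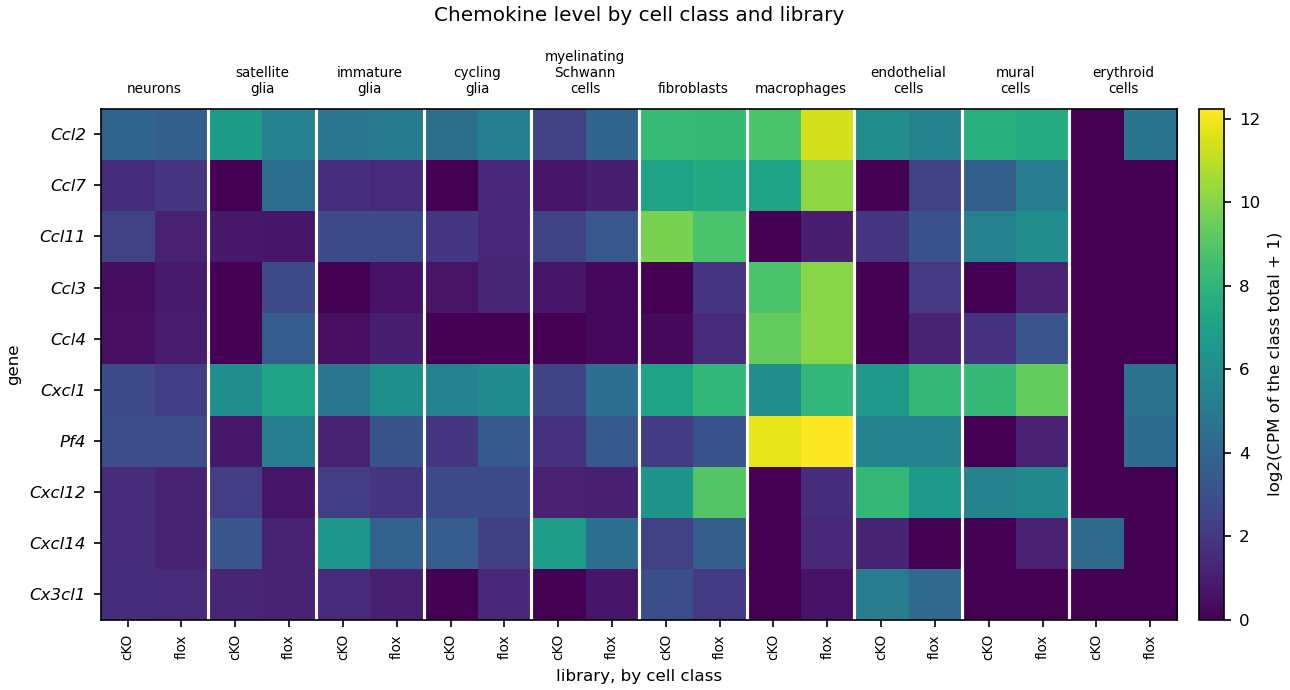
Heat map of log2(CPM + 1) for the 10 chemokine genes (rows) in 10 cell classes found in both libraries. Each class had at least 50 cells over both libraries, and its cKO column lies left of its flox column. Ccl3, Ccl4 and Pf4 are brightest in macrophages, Ccl11 in fibroblasts and Cxcl14 in immature glia and myelinating Schwann cells of the cKO library.

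Ccl2 and Ccl7, the CC ligands that draw CCR2-bearing monocytes, were the members that differed most in macrophages. Ccl2 was at 435 CPM (387 to 489) in the 160 cKO macrophages and at 2682 CPM (2610 to 2756) in the 406 flox macrophages, a ratio of -2.62 (-2.80 to -2.45) on 290 and 5215 UMIs. Ccl7 was at 134 CPM in cKO macrophages and 1186 CPM in flox macrophages, with a ratio of -3.15 (-3.47 to -2.84) on 89 and 2306 UMIs. These are the values that chose the genes.

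The share of macrophages with a Ccl2 UMI was 45.6% (37.7% to 53.7%) in cKO and 62.8% (57.9% to 67.5%) in flox. With each cell thinned to 1000 UMIs the shares were 21.2% in cKO and 49.3% in flox. For Ccl7 a UMI was present in 40 of 160 macrophages in cKO and 186 of 406 in flox, and in 10.0% in cKO and 31.5% in flox after thinning. Median depth was 3677 UMIs in cKO and 4487 UMIs in flox macrophages. In myelinating Schwann cells, where little Ccl2 is expected, 1.52% of cKO cells (median 4700 UMIs) and 4.55% of flox cells (median 8193 UMIs) had a Ccl2 UMI, so the macrophage shares stand well above that background in both libraries.

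Per cell, the upper quartile of Ccl2 UMIs per macrophage was 2 in cKO and 18 in flox, and the highest single cell held 36 in cKO and 130 in flox. UMIs of both Ccl2 and Ccl7 were present in 35 of 160 cKO and 174 of 406 flox macrophages. Of the cells with Ccl2, 47.9% in cKO and 68.2% in flox also had Ccl7.

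Subsets of macrophages, split by markers, had unlike ratios, though the difference between subsets was not tested. Nerve and border macrophages, gated on at least 3 of Mrc1, F13a1, Cd163, Lyve1, Cbr2, Folr2 and Ms4a7, numbered 62 in cKO and 201 in flox. In them Ccl2 was at 471 CPM in cKO and 4071 CPM in flox (-3.11, -3.37 to -2.87), and Ccl7 at 216 CPM in cKO and 1896 CPM in flox (-3.13, -3.52 to -2.77). The median nerve and border macrophage held 1 Ccl2 UMI in cKO and 15 in flox, and cells with both Ccl2 and Ccl7 were 22 of 62 in cKO and 149 of 201 in flox.

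In the other macrophages, 96 in cKO and 152 in flox, Ccl2 was at 414 CPM in cKO and 588 CPM in flox (-0.50, -0.79 to -0.22). The share of these cells with a Ccl2 UMI was 33.3% in cKO and 36.8% in flox. Ccl7 was at 70.9 CPM in cKO and 109 CPM in flox (-0.62, -1.34 to 0.06). In cKO the intervals of the Ccl2 level overlapped between these subsets, while in flox 4705 of the 5215 macrophage UMIs of Ccl2 were in nerve and border cells. The other macrophages are what the subset gates left, and their makeup differed between the libraries. Their monocyte markers summed to 139 CPM in cKO and 1533 CPM in flox, and their nerve and border markers to 1859 CPM in cKO and 954 CPM in flox. Myelin genes summed to 221 CPM in cKO and 3488 CPM in flox. The part of this makeup in the ratios of the subset was not tested.

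Ccl3 and Ccl4, CC ligands that activated macrophages and microglia secrete, were nearly confined to macrophages, which held 89.4% of all Ccl3 UMIs in cKO and 90.9% in flox. Ccl3 was at 431 CPM in cKO and 1069 CPM in flox macrophages (-1.31, -1.49 to -1.13), and Ccl4 at 647 CPM in cKO and 1083 CPM in flox (-0.74, -0.90 to -0.59). The nerve and border subset differed more, with Ccl3 at 338 CPM in cKO and 1221 CPM in flox (-1.85) and Ccl4 at 457 CPM in cKO and 1117 CPM in flox (-1.29). The other macrophages were within the fold for both genes, at -0.19 for Ccl3 and 0.10 for Ccl4.

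Pf4, platelet factor 4, is a CXC ligand made by megakaryocytes and also by tissue macrophages. It was at 3554 CPM in cKO and 4848 CPM in flox macrophages (-0.45, -0.51 to -0.38), and was the macrophage member that differed least. The share of macrophages with a Pf4 UMI was 86.2% in cKO and 68.2% in flox, an order opposite to that of the level. Microglia-like macrophages, gated on at least 3 microglia markers with at most 1 nerve and border marker, numbered 2 in cKO and 53 in flox, and 5.66% of those in flox had a Pf4 UMI. In nerve and border macrophages the share was 98.4% in cKO and 98.5% in flox. Neurons gave 5.93% in cKO and 5.62% in flox, at their medians of 9346 and 46318 UMIs.

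**Figure D2:**
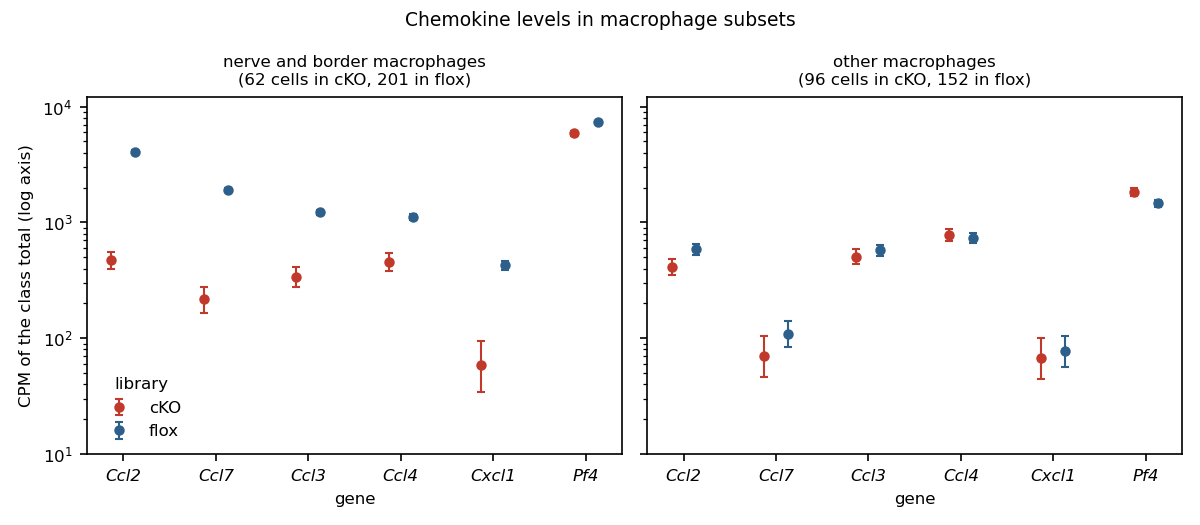
Levels of 6 chemokine genes in nerve and border macrophages (left) and in the other macrophages (right), in CPM on a log axis; points are single libraries and bars are exact Poisson intervals of the counts. On the left the cKO points lie below the flox points for Ccl2, Ccl7, Ccl3, Ccl4 and Cxcl1. On the right the points of these genes lie closer together, with Ccl2 and Ccl7 still lower in cKO past the fold.

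Of the 6 members measured in macrophages, 5 were lower in cKO past the fold and 0 higher, where 20.6% of the 5826 measured genes were lower and 11.6% higher; since the members were chosen partly on this contrast, nothing is read from that count. In nerve and border macrophages the same 5 of 6 were lower, against 19.1% of 4003 genes. In the other macrophages 2 of 6 were lower, against 21.1% of genes.

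The macrophages of the libraries also differed in makeup and in early genes. Lyve1, a marker of perivascular and nerve macrophages, was at 152 CPM in cKO and 784 CPM in flox macrophages, and Plac8, a monocyte gene, at 57.1 CPM in cKO and 332 CPM in flox. The 6 microglia markers summed to 1174 CPM in cKO and 1231 CPM in flox: Sall1 and Siglech had 0 and 2 UMIs in cKO against 23 and 86 in flox, while Fcrls was at 890.3 CPM in cKO and 714 CPM in flox. The nerve and border markers summed to 2884 CPM in cKO and 3922 CPM in flox, among which Ms4a7 was higher in cKO at 1105 CPM against 557 CPM in flox. The monocyte markers summed to 79.6 CPM in cKO and 485 CPM in flox. Among nerve and border macrophages without a Lyve1 UMI, 38 cells in cKO and 60 in flox, Ccl2 had a ratio of -2.33 and Ccl7 of -2.53. Among macrophages without a UMI of any of the 6 microglia markers, only 17 cells in cKO and 76 in flox, the ratio was -2.59 for Ccl2 and -1.88 for Ccl7, the last on 4 UMIs in cKO and 72 in flox.

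Of 18 immediate early and dissociation genes, 15 were lower in cKO macrophages past the fold and 1 was higher (20.6% and 11.6% of all measured genes). The median ratio was -0.95 against -0.10 over all measured genes. Fos was at 344 CPM in cKO and 1823 CPM in flox (-2.41), and Dusp1 at 120.1 CPM in cKO and 562 CPM in flox (-2.23); the highest were the heat shock genes Hspa1b (0.61) and Hspa1a (0.17). In myelinating Schwann cells 3 of the 18 were higher and 12 lower (15.5% and 14.9% of all genes). The 18 ratios ran from Socs3 (-2.52) and Ier2 (-2.10) to Hspa1a (1.85) and Hspa1b (2.10). In nerve and border macrophages 12 of the 18 were lower and 0 higher (19.1% and 15.5% of all genes). Their summed levels were 8417 CPM in cKO and 16154 CPM in flox for the whole list. In the other macrophages, where Ccl3 and Ccl4 were within the fold, 14 of the 18 were lower, against 21.1% of all genes. Myelin genes, which can reach macrophages as free or engulfed RNA, summed to 492 CPM in cKO and 1043 CPM in flox nerve and border macrophages. The part of these values in the Ccl2 and Ccl7 difference was not tested.

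Outside macrophages the Ccl2 ratios pointed in both directions. Fibroblasts had 316 CPM in cKO and 296 CPM in flox (0.09, 0.00 to 0.18), and mural cells, the pericytes and smooth muscle of vessels, had 219 CPM in cKO and 193 CPM in flox (0.18, -0.21 to 0.56); the mural ratio was 1.91 with each cell thinned to 1000 UMIs. Satellite glia, which wrap neuronal cell bodies, had more Ccl2 in cKO, at 99.5 CPM against 42.2 CPM in flox (1.24, 0.79 to 1.69), and a UMI was present in 12.3% of cells in cKO and 5.18% in flox. Endothelial cells had 64.7 CPM in cKO and 43.1 CPM in flox (0.59, 0.03 to 1.13), but 37 of the 49 UMIs in cKO came from 1 cell and the share of cells with a UMI was 5.93% in cKO and 12.2% in flox. The other glial classes lay between 4.15 and 37.7 CPM, lower in cKO past the fold in cycling glia (-0.79) and in myelinating Schwann cells (-1.79). Fibroblasts held 47.7% of all Ccl2 UMIs in cKO and 30.3% in flox, and macrophages held 8.57% in cKO and 48.7% in flox.

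Neurons had 14.5 CPM of Ccl2 in cKO and 12.0 CPM in flox (0.27, 0.13 to 0.41). Among neurons of at least 10000 UMIs, which narrows the depth gap, the levels were 12.8 CPM in cKO and 12.0 CPM in flox (0.08, -0.07 to 0.24), and 23.7% of cells in cKO and 25% in flox had a UMI. Oligodendrocytes of the flox library, at a median of 8992 UMIs, had 1.20 CPM and 1.21% of cells. Peptidergic nociceptors, marked by Calca and Tac1, had the most Ccl2 among the deep neuron subtypes, at 26.3 CPM in cKO and 24.4 CPM in flox. Non-peptidergic nociceptors had 5.0 CPM in cKO and 6.04 CPM in flox. Neurofilament neurons, the large myelinated mechanosensors and proprioceptors, had 15.3 CPM in cKO and 6.60 CPM in flox (1.21, 0.77 to 1.67).

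Ccl7 outside macrophages was mainly a fibroblast gene, at 134 CPM in cKO and 178 CPM in flox (-0.42, -0.54 to -0.29). It was lower in cKO in the Apod fibroblasts, at 162 CPM against 318 CPM in flox (-0.97), and within the fold in the Mfap5 fibroblasts (-0.27) and the remaining fibroblasts (-0.12). These subsets were gated on gene lists led by Apod and by Mfap5, which mark endoneurial and epineurial fibroblasts of nerves.

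Ccl11, eotaxin-1, attracts eosinophils through CCR3. Fibroblasts held 91.1% of its UMIs in cKO and 88.1% in flox, at 876 CPM (850.4 to 902) in cKO and 431 CPM (419 to 444) in flox, a ratio of 1.02 (0.96 to 1.08). By subset it was at 2005 CPM in cKO and 1474 CPM in flox Apod fibroblasts (0.44), at 92.9 CPM in cKO and 43.6 CPM in flox Mfap5 fibroblasts (1.09), and at 1211 CPM in cKO and 366 CPM in flox remaining fibroblasts (1.73). The Apod subset was thus high in both libraries and within the fold. A UMI was found in 98.4% of cKO and 85.7% of flox Apod fibroblasts.

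Cxcl12, the ligand of CXCR4 that retains and guides stem cells, leukocytes and growing axons, differed in opposite directions in fibroblasts and endothelium. In fibroblasts it was at 81.1 CPM (73.5 to 89.3) in cKO and 502 CPM (489 to 515) in flox (-2.63, -2.78 to -2.49), with a UMI in 25.5% of cKO and 54.3% of flox cells. In endothelial cells it was at 281 CPM (245 to 322) in cKO and 94.2 CPM (79.9 to 110.4) in flox (1.58, 1.27 to 1.89), with a UMI in 41.5% of cKO and 26.5% of flox cells. After thinning, the endothelial shares were 20.7% in cKO and 6.12% in flox. Fibroblasts gave 47.8% of all Cxcl12 UMIs in cKO and 90.9% in flox. Mural cells had 43.3 CPM in cKO and 51.9 CPM in flox (-0.26, -1.14 to 0.56).

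Single fibroblast markers differed between the libraries, while the fibroblast markers as a list summed to 32537 CPM in cKO and 30757 CPM in flox, and the Mfap5 list to 2991 CPM in cKO and 2861 CPM in flox. Mfap5 was at 2386 CPM in cKO and 1806 CPM in flox and Lum at 932 CPM in cKO and 584 CPM in flox. Wnt4 was at 5.67 CPM in cKO and 336 CPM in flox fibroblasts, Fbln1 at 73.9 CPM in cKO and 372 CPM in flox, and Clec3b at 187 CPM in cKO and 528 CPM in flox. The perineurial and Wnt4 list summed to 309 CPM in cKO and 604 CPM in flox, with Lypd2 at 215 CPM in cKO and 180.4 CPM in flox. Among fibroblasts without a Wnt4 UMI, 851 cells in cKO and 812 in flox, the ratio was -0.86 for Cxcl12, 0.50 for Ccl11 and -1.19 for Cxcl1. Cxcl12 was lower in each subset: at 118 CPM in cKO and 470.4 CPM in flox Apod fibroblasts (-1.99), 53.2 CPM in cKO and 170.3 CPM in flox Mfap5 fibroblasts (-1.68), and 95.0 CPM in cKO and 947 CPM in flox remaining fibroblasts (-3.32). In these remaining fibroblasts Wnt4 was at 9.10 CPM in cKO and 613 CPM in flox.

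**Figure D3:**
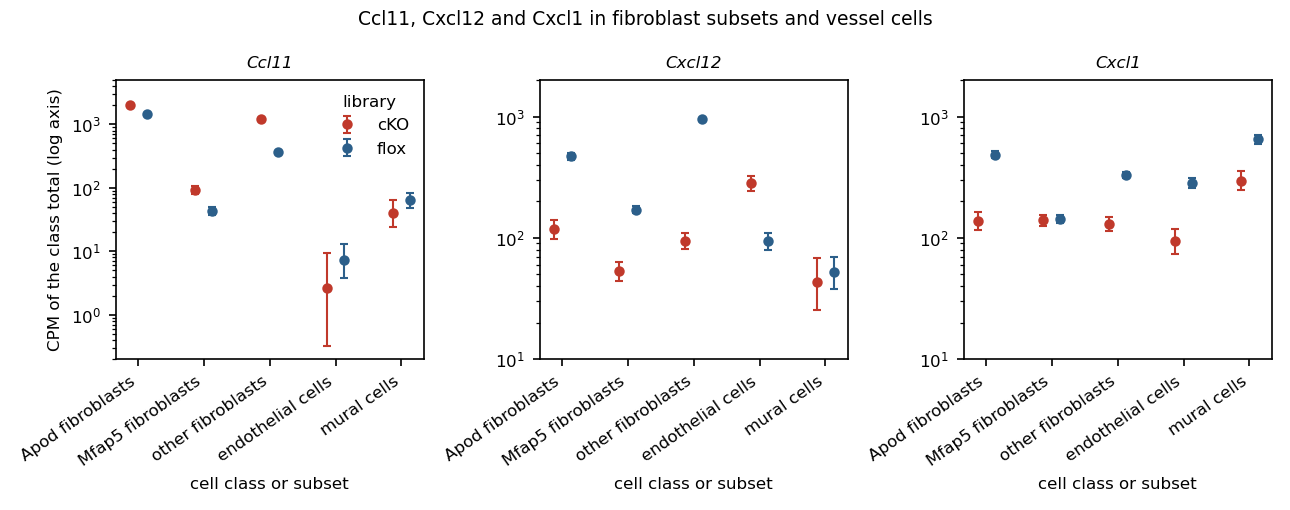
Ccl11, Cxcl12 and Cxcl1 in 3 fibroblast subsets, endothelial cells and mural cells, in CPM on a log axis; points are single libraries and bars are exact Poisson intervals of the counts. Cxcl12 is lower in cKO in each fibroblast subset and higher in cKO in endothelial cells, and Cxcl1 lies at the same level in both libraries in Mfap5 fibroblasts.

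Of the 8 members measured in fibroblasts, 2 were higher in cKO past the fold (Ccl11 and Cx3cl1) and 4 lower (Cxcl1, Pf4, Cxcl12 and Cxcl14), where 8.93% of 11546 genes were higher and 18.8% lower. In endothelial cells 3 of 5 were higher (Ccl2, Cxcl12 and Cx3cl1) and 1 lower (Cxcl1), where 19.7% of 6115 genes were higher and 25.3% lower. Mural cells had 2 of 4 lower (Ccl11 and Cxcl1) and 0 higher, where 26.5% of 3846 genes were lower and 16.8% higher. By fibroblast subset, 0 of 5 members were higher and 3 lower in Apod fibroblasts (14.7% of genes higher and 21.5% lower), 1 of 7 higher and 4 lower in Mfap5 fibroblasts (5.87% and 17.8%), and 1 of 6 higher and 3 lower in the remaining fibroblasts (16.7% and 18.6%).

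Cxcl1, a ligand of CXCR2 that draws neutrophils, was the member lower in cKO in the most classes. It was past the fold downward in 7 of the 9 classes where it was measured. In these 7 the share of all measured genes lower ran from 14.9% in myelinating Schwann cells to 26.5% in mural cells. How many genes were lower in as many classes was not counted. Mural cells had its highest level, at 296 CPM (246 to 353) in cKO and 647 CPM (594 to 705) in flox (-1.13, -1.42 to -0.84). A Cxcl1 UMI was present in 19.0% of mural cells in cKO and 66.4% in flox, or 12.9% and 33.6% after thinning; their median depth was 2381 UMIs in cKO and 4899 UMIs in flox. Endothelial cells had 93.7 CPM in cKO and 282 CPM in flox (-1.59), fibroblasts 136 CPM in cKO and 275 CPM in flox (-1.01), and macrophages 63.1 CPM in cKO and 278 CPM in flox (-2.14). Neutrophils, the cells this ligand attracts, numbered 20 in cKO and 14 in flox.

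Glia held lower levels of Cxcl1. Satellite glia had 62.1 CPM in cKO and 142 CPM in flox (-1.19), immature glia 26.7 CPM in cKO and 67.6 CPM in flox (-1.34), and myelinating Schwann cells 4.75 CPM in cKO and 21.4 CPM in flox (-2.17). Cycling glia were within the fold, at 42.7 CPM in cKO and 59.4 CPM in flox (-0.48). Neurons had 5.40 CPM in cKO and 3.76 CPM in flox (0.52); the ratio was 0.31 among neurons of at least 10000 UMIs, 0.25 with no doublet removal, 0.95 with each cell counted equally and 1.69 after a subtraction of free RNA. Oligodendrocytes of the flox library, as a class with little expected Cxcl1, had 2.10 CPM.

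Immediate early and dissociation genes were also lower in many of these classes, past the fold. Of the 18, macrophages had 15 lower and 1 higher (20.6% and 11.6% of all genes), and immature glia 13 lower and 2 higher (19.8% and 8.94%). Myelinating Schwann cells had 12 lower and 3 higher (14.9% and 15.5% of all genes). Endothelial cells had 11 lower and 4 higher (25.3% and 19.7%), and mural cells 8 lower and 3 higher (26.5% and 16.8%). Satellite glia, where Cxcl1 was lower too, had 5 of the 18 lower and 4 higher (18.2% and 7.24% of all genes). In the other macrophages 14 were lower (21.1% of all genes) and in cycling glia 10 (14.9%), though Cxcl1 was within the fold in both. Neurons, where Cxcl1 was higher, had 0 of the 18 lower and 9 higher (4.37% and 9.25% of all genes). Among neurons of at least 10000 UMIs, where Cxcl1 was within the fold, 0 were lower and 8 higher (4.46% and 8.01%). In Apod fibroblasts Cxcl1 was at 138 CPM in cKO and 486 CPM in flox (-1.82). There 17 of the 18 immediate early and dissociation genes were lower past the fold, against 21.5% of all genes. The list's median ratio was -1.98 against -0.06 over all genes. Fos in these cells was at 398 CPM in cKO and 4759 CPM in flox. In Mfap5 fibroblasts Cxcl1 was at 139 CPM in cKO and 144 CPM in flox (-0.05, -0.25 to 0.14). The same list had 1 member lower and 2 higher there (17.8% and 5.87% of all genes), with a median of -0.01. Fos was at 2776 CPM in cKO and 3188 CPM in flox. Over the 21 combinations of class and library with enough cells, the genes whose level was most like that of Cxcl1 were Idh2 (r = 0.96), Zfp36 (r = 0.96) and Junb (r = 0.95), Zfp36 and Junb being on the immediate early list; these points share library and class depth, and no test applies. The part of the early gene difference in Cxcl1 was not tested.

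**Figure D4:**
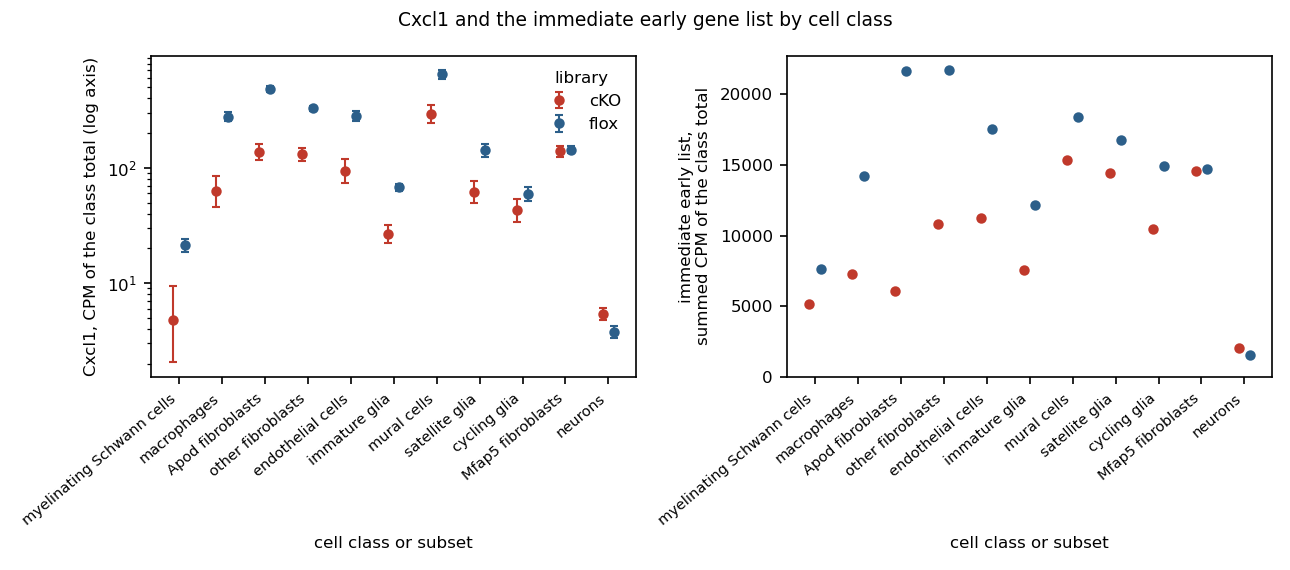
Cxcl1 (left, CPM on a log axis, with exact Poisson intervals) and the summed level of the 18 immediate early and dissociation genes (right, CPM) by class or fibroblast subset; points are single libraries. In Mfap5 fibroblasts the cKO and flox points coincide in both panels, and in Apod fibroblasts the cKO points lie far below the flox points in both.

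Cxcl14, a homeostatic CXC ligand for which no signalling receptor is agreed on, was the member that marked cKO Schwann cells. Myelinating Schwann cells had 113 CPM (97.3 to 130.0) in cKO and 21.0 CPM (18.3 to 23.9) in flox (2.43, 2.14 to 2.71) on 190 and 225 UMIs. Immature glia had 85.4 CPM (77.2 to 94.2) in cKO and 13.7 CPM (11.4 to 16.2) in flox (2.64, 2.36 to 2.94) on 396 and 132 UMIs. These values chose the gene.

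The share of cells with a Cxcl14 UMI was 22.6% in cKO and 6.53% in flox for myelinating Schwann cells, and 12.5% in cKO and 3.75% in flox for immature glia. After thinning the shares were 10.7% in cKO and 2.06% in flox, and 5.65% in cKO and 1.21% in flox. Macrophages had a Cxcl14 UMI in 0 of 160 cKO cells, which allows a share of up to 1.88%, and in 0.739% of flox cells, so both glial classes stand above that background in each library. Cxcl14 had few UMIs per cell: in myelinating Schwann cells the highest cell held 17 in cKO and 12 in flox.

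Because flox held more fully myelinated cells (the myelin markers summed to 77299 CPM in cKO and 139421 CPM in flox myelinating Schwann cells), immature and myelinating cells were also compared in bins of equal myelin marker level, counted as marker UMIs per 10000 UMIs of the cell. Below 32, the lowest bin, the level was 46.9 CPM in cKO and 24.0 CPM in flox (0.96, 0.30 to 1.66), and the share of cells with a UMI was 5.77% in cKO and 6.25% in flox. From 32 to 64 it was 74.1 CPM in cKO and 12.0 CPM in flox (2.63), and in the third bin, which starts at 64, it was 124 CPM in cKO and 10.8 CPM in flox (3.52, 2.98 to 4.09). In the fourth bin it was 154 CPM in cKO and 16 CPM in flox (3.26), in the fifth 137 CPM in cKO and 37.1 CPM in flox (1.88), and in the highest 43.8 CPM in cKO and 15.4 CPM in flox (1.51, 0.73 to 2.21), the last on 70 cKO and 811 flox cells. All 6 bins were past the fold upward, and the gap was widest at intermediate myelin levels. The bins divide the same cells whose values chose the gene, so their shared direction is a description and no further support. The share of all genes past the fold was not counted by bin.

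**Figure D5:**
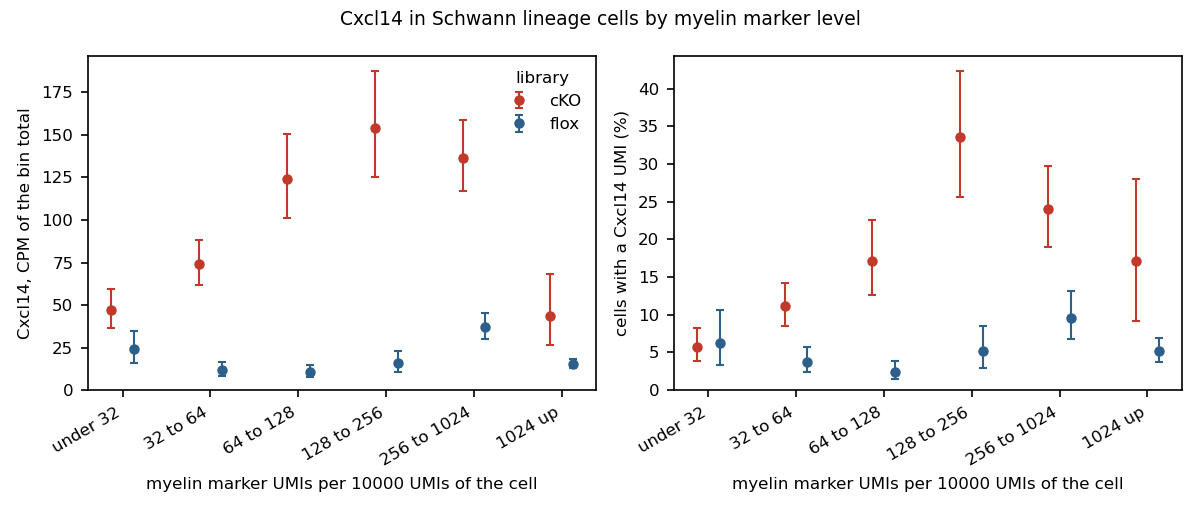
Cxcl14 in immature and myelinating Schwann lineage cells by bins of myelin marker level (horizontal axis, marker UMIs per 10000 UMIs of the cell); left, CPM with exact Poisson intervals, right, percent of cells with a UMI with exact binomial intervals, 1 point per library. The cKO level lies above the flox level in each bin, most clearly in the third and the fourth bins.

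The other glia held little Cxcl14. Satellite glia had 8.23 CPM in cKO and 1.36 CPM in flox on 11 and 2 UMIs, and cycling glia 10.7 CPM in cKO and 3.94 CPM in flox on 19 and 14 UMIs; neither reached 50 UMIs. In fibroblasts the direction was opposite, at 4.10 CPM in cKO and 11.3 CPM in flox (-1.46, -2.20 to -0.78). Neurons had 1.89 CPM in cKO and 1.22 CPM in flox, and the non-peptidergic nociceptors of at least 10000 UMIs had 1.81 CPM in cKO and 2.45 CPM in flox. The genes most like Cxcl14 over the 21 points were 6430590A07Rik, Gm29358 and Gsdme (r = 0.83 each), a looser likeness than for any other member.

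Of the 5 members measured in myelinating Schwann cells, Cxcl14 was higher in cKO past the fold and 4 (Ccl2, Ccl11, Cxcl1 and Pf4) were lower, where 15.5% of 9670 genes were higher and 14.9% lower. The 4 lower members were at 2.37 to 4.75 CPM in cKO and at 9.12 to 21.4 CPM in flox; the Ccl11 ratio was 0.020 after thinning, and all 4 were lower past the fold after a subtraction of free RNA. In immature glia 1 of 5 was higher (Cxcl14) and 2 lower (Cxcl1 and Pf4), where 8.94% of 10824 genes were higher and 19.8% lower. Satellite glia had 1 of 3 higher (Ccl2) and 2 lower (Cxcl1, and Pf4 on 1 UMI in cKO and 56 in flox, 40 of them in 1 cell), where 7.24% of 6712 genes were higher and 18.2% lower. Cycling glia had 1 of 2 lower (Ccl2) and 0 higher, where 14.9% of 8465 genes were lower and 8.29% higher. In erythroid cells 0 of the 10 members reached 50 UMIs; 15.4% of 1334 genes were higher and 19.6% lower there.

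Cx3cl1, fractalkine, is made as a membrane-bound ligand and is released by the proteases ADAM10 and ADAM17. It was a rare transcript here, with 185 UMIs in cKO and 254 in flox over all kept cells. Endothelial cells had its highest level, at 34.3 CPM (22.4 to 50.3) in cKO and 17.2 CPM (11.5 to 24.9) in flox (0.99, 0.17 to 1.82) on 26 and 28 UMIs, but the ratio was -0.46 after thinning and a UMI was found in 12.6% of cells in cKO and 13.6% in flox. Neurons had 2.06 CPM in cKO and 1.89 CPM in flox (0.13, -0.25 to 0.51), and held 57.8% of its UMIs in cKO and 51.2% in flox. Fibroblasts had 6.64 CPM in cKO and 3.20 CPM in flox (1.05, 0.33 to 1.78), with a ratio of -0.077 after thinning. Macrophages had 0 UMIs in cKO and 1 in flox.

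Neuron subtypes differed in Cx3cl1. Among neurons of at least 10000 UMIs, peptidergic nociceptors had 4.83 CPM in cKO and 4.02 CPM in flox, and neurofilament neurons 3.08 CPM in cKO and 5.24 CPM in flox (-0.76, -1.51 to -0.05). Non-peptidergic nociceptors had 1 UMI in 175 cKO cells and 0 in 351 flox cells. Adam10 and Adam17 in endothelial cells, where Cx3cl1 was highest, were within the fold at 0.04 and -0.02.

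In neurons all 10 members were measured, mostly at under 7 CPM. Past the fold, 4 were higher in cKO (Ccl11, Cxcl1, Cxcl12 and Cxcl14) and 2 lower (Ccl3 and Ccl4), where 9.25% of 15038 genes were higher and 4.37% lower. Among neurons of at least 10000 UMIs 1 was higher (Ccl11) and 4 lower (Ccl7, Ccl3, Ccl4 and Pf4), where 8.01% of genes were higher and 4.46% lower. Markers of other cells also differed in neurons: the fibroblast list summed to 391 CPM in cKO and 184 CPM in flox, the satellite glia list to 1360.0 CPM in cKO and 611 CPM in flox, and the erythroid list to 116 CPM in cKO and 48.6 CPM in flox, whereas the myelin list summed to 975 CPM in cKO and 1404 CPM in flox. Their part in the chemokine ratios was not tested. The neuronal ratio of Ccl11 was 1.92, and ranged from 1.10 with no doublet removal to 3.37 after thinning. The neuronal ratio of Cxcl14 was -0.50 after a subtraction of free RNA, that of Cxcl12 was -0.14 with no doublet removal, and those of Ccl3 and Ccl4 were 0.64 and 0.51 with each cell counted equally.

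The receptors of these ligands were mostly found on macrophages. Of 18 chemokine receptor genes, 6 were measured in macrophages, with a median ratio of -0.18 against -0.10 over all genes. Ccr2, the receptor of Ccl2 and Ccl7 and a monocyte marker, was lower, at 12.0 CPM in cKO and 89.0 CPM in flox (-2.89, -4.12 to -1.88) on 8 and 173 UMIs. Ccr1 was also lower, at 144 CPM in cKO and 237 CPM in flox (-0.72). Cxcr4, the receptor of Cxcl12, was higher, at 61.6 CPM in cKO and 19.5 CPM in flox (1.66, 0.98 to 2.33). Cx3cr1, the receptor of Cx3cl1, was at 459 CPM in cKO and 458 CPM in flox (0.01, -0.19 to 0.19).

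Scavenger receptors, which bind chemokines without G-protein signalling, had other homes. Ackr1 was a neuronal gene here, at 41.7 CPM in cKO and 49.8 CPM in flox (-0.26). Ackr3, which takes up Cxcl12, was at 106 CPM in cKO and 135 CPM in flox fibroblasts (-0.35). In myelinating Schwann cells both were measured and within the fold, at -0.09 for Ackr1 and 0.18 for Ackr3.

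Of 25 other chemokine genes, 24 were in the files and 9 were measured in macrophages. Of these 9, 3 were higher in cKO and 4 lower (11.6% and 20.6% of all genes), with a median of -0.33. Ccl12, a further monocyte-attracting gene of the chromosome 11 cluster, was at 319.8 CPM in cKO and 1617 CPM in flox (-2.34, -2.55 to -2.14), and Cxcl2, a CXCR2 ligand like Cxcl1, at 799 CPM in cKO and 2331 CPM in flox (-1.54). Going the other way, Ccl5 was at 69.1 CPM in cKO and 2.06 CPM in flox (5.07), with all its UMIs in 1.88% of cKO and 0.739% of flox macrophages, and Ccl8 at 63.1 CPM in cKO and 9.26 CPM in flox (2.77). Cxcl16, also higher, was at 333 CPM in cKO and 103 CPM in flox (1.70). In myelinating Schwann cells 3 were measured, 0 higher and 1 lower (15.5% and 14.9% of all genes). Cxcl2 was lower (-2.48) on 2 UMIs in cKO and 71 in flox, while Ccl25 (0.37) and Cxcl10 (0.16) were within the fold.

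A list of 22 NF-kappa-B and cytokine genes reads out the inflammatory programme that induces Ccl2 and Cxcl1. In macrophages 18 of them were measured, 3 higher and 6 lower (11.6% and 20.6% of all genes), with a median of 0.04. The lowest were the interleukin 1 genes Il1a (46.5 CPM in cKO and 165 CPM in flox, -1.83) and Il1b (90.1 CPM in cKO and 248 CPM in flox, -1.46), and the highest were Tnfaip2 (132 CPM in cKO and 38.1 CPM in flox, 1.80) and Relb (87.1 CPM in cKO and 45.3 CPM in flox, 0.94). In nerve and border macrophages 18 were measured, 4 higher and 8 lower (15.5% and 19.1% of all genes), with a median of -0.25. In the other macrophages 17 were measured, 3 higher and 5 lower (11.6% and 21.1% of all genes), with a median of 0.11. In myelinating Schwann cells 13 were measured, 3 higher and 2 lower (15.5% and 14.9% of all genes), with a median of 0.15. Nfkbiz (-1.29) and Zfp36 (-1.28) were the lowest, and Csf1 (1.96) and Cebpb (0.98) the highest.

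Of 10 genes for the shedding and cleavage of chemokines, 6 were measured in macrophages, 2 higher and 1 lower (11.6% and 20.6% of all genes). Mmp14, a membrane metalloprotease, was at 52.5 CPM in cKO and 14.9 CPM in flox (1.82), and Adam17 at 113 CPM in cKO and 63.3 CPM in flox (0.83). The lowest were Timp3 (-1.45), a metalloprotease inhibitor, and Bsg (-0.33). In myelinating Schwann cells 7 were measured, 0 higher and 1 lower (15.5% and 14.9% of all genes). Of the 7, Mmp2 (-0.75) and Bsg (-0.36) were the lowest and Timp2 (0.46) and Mmp14 (0.43) the highest. The list's summed level was highest in Mfap5 fibroblasts, where 9 were measured, 0 higher and 1 lower (5.87% and 17.8% of all genes). The lower gene was Mmp2, which cleaves Cxcl12, at 104.7 CPM in cKO and 218 CPM in flox (-1.06).

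Likeness of pattern over the 21 points, which all share library and class depth, followed the cell classes. Pf4 was most like Mrc1 (r = 0.97), C1qb (0.96) and Laptm5 (0.95); Ccl3 like Fcgr1, F13a1 and Fcgr3 (0.98 each); and Ccl4 like Ccl3 (0.96), Fcgr1 (0.96) and Nlrp3 (0.95). Ccl11 was most like Lox (0.95), Foxd1 (0.94) and Glt8d2 (0.93), and Cxcl12 like Snai1 (0.95), Fzd4 (0.93) and Esm1 (0.93). Ccl2 was most like Sh3bp1 (0.92), Plxnb2 (0.90) and Thbs1 (0.89), Ccl7 like Tmem119 (0.93), Lpl (0.92) and Tnni2 (0.91), and Cx3cl1 like Mcc (0.92), Fzd6 (0.90) and Rassf9 (0.86). Between members, r was 0.80 for Ccl2 with Ccl7 and 0.80 for Ccl2 with Cxcl1, and -0.37 for Ccl2 with Cxcl14.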

How the data were processed

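Single-cell 3′ libraries (10x v3.1 chemistry, per the labels' protocols) of postnatal day 4 ganglia were used, 1 per genotype. The deposited files hold UMI counts per gene and barcode, not normalized; per the file headers they were written by cellranger 6.1.2, while the submitters' processing notes name Cell Ranger 5.0.1, Scanpy and mm10.

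A barcode needed 1000 UMIs, 500 detected genes and a mitochondrial share of no more than 15% to pass (8435 in cKO and 8714 in flox). The doublet caller of scanpy 1.11.5 marked 2 and 0 cells and so did not work; the highest scores, at 0.8% per 1000 cells, were removed instead (569 cells in cKO and 607 in flox). Classes were gated by at least 3 markers of a list, with limits set from the marker distributions, fibroblasts and glia by at least 2. Cells meeting 2 gates were left out. Glia were then split into cycling and myelinating cells by at least 3 markers of each list. Of the rest, satellite glia were those with at least 16 Fabp7 UMIs per 10000 UMIs of the cell, a single gene. Immature glia were the remainder. Ratios compare summed counts with exact conditional binomial intervals (scipy 1.17.1). These treat each UMI as independent, and their coverage where many UMIs come from a single cell was not tested. TMM factors came from edgeR 4.0.16. Named genes were the 10 members, and of each list the counts past the fold with the 2 highest and 2 lowest ratios where at least 50 UMIs were found; others named were chosen after their values were seen. The members, lists and gates were chosen with earlier results of these data known. Promoters are from RefSeq (GRCm38.p6) and positions from GENCODE vM21. Alternatives were other scalings, depths, gates and cell filters, and a subtraction of free RNA.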

Additional observations from a re-analysis of the deposited data

Results flagged for a closer look

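Members whose ratio (log2 of cKO over flox) pointed in opposite directions in a pair of classes, with both counting intervals clear of 0, are listed here; the difference between the classes was not tested, and each rests on 1 library per genotype. Ccl2 was at 1.24 in satellite glia and -2.62 in macrophages. Cxcl1 was at 0.52 in neurons and -2.17 in myelinating Schwann cells, both at low levels. Cxcl12 was at 1.58 in endothelial cells and -2.63 in fibroblasts. Cxcl14 was at 2.64 in immature glia and -1.46 in fibroblasts.

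Signal also appeared in cells outside the comparisons. Astrocytes, gated in the flox library alone, had 75.1 CPM of Ccl2, 49.1 CPM of Cxcl1, 28.2 CPM of Pf4 and 25.3 CPM of Cxcl14, and flox oligodendrocytes had 6.0 CPM of Cxcl14. In the ungated cells, 874 in cKO and 428 in flox, Cxcl1 was at 92.9 CPM in cKO and 58.7 CPM in flox, a ratio of 0.66 where most gated classes had a lower level in cKO.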

How the results depend on the processing

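No paired analysis was possible because each genotype had 1 library. The ratios of Ccl2 and Ccl7 in macrophages and of Cxcl14 in myelinating Schwann cells kept their direction and stayed past the fold under every alternative run. The subset of other macrophages, given above, was not among these alternatives. In that subset, whose makeup differed between the libraries, both ratios were much smaller and the Ccl7 interval spanned both directions. Values outside the counting interval were, for Ccl2, -2.17 after thinning each cell to 1000 UMIs, -2.82 in macrophages with at least 2 nerve and border markers and -3.11 in macrophages with no UMI of Tmem119, P2ry12, Sall1 or Siglech; for Ccl7, -1.88 without any microglia marker and -3.78 without those 4 genes; and for Cxcl14, 2.77 after thinning. The split on those 4 genes, on Lyve1 and on Wnt4 was chosen after seeing the data. The counts of 12 pairs higher and 23 lower ranged from 9 to 17 and from 20 to 24. The share of macrophage genes lower in cKO was 25.9% with at least 20 UMIs and 14.4% with at least 200.

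Of 353 other values, 287 lay within the counting interval of the main value, 58 lay outside it and 8 changed sign from a ratio past the fold; the cause was not tested. Some ratios within the fold, in neurons, immature glia and mural cells, also changed sign. The 8 were as follows. With each cell counted equally, neurons gave 0.64 for Ccl3 and 0.51 for Ccl4, and the stricter gate gave 0.23 for Ccl4. Neurons also gave -0.14 for Cxcl12 with no doublet removal and -0.50 for Cxcl14 with free RNA subtracted. Thinning gave 0.020 for Ccl11 in myelinating Schwann cells, -0.077 for Cx3cl1 in fibroblasts and -0.46 for Cx3cl1 in endothelial cells. TMM scaling moved ratios by 0.14 in satellite glia and -0.11 in myelinating Schwann cells, and by under 0.1 in the other classes with measured members. The 160 cKO macrophages limit the precision of the macrophage values.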
